A study of Mus musculus with 6 samples.

Results

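Author cluster 1 is the group of fetal mouse testicular germ cells that the depositing authors' clustering, at a resolution of 0.2, gave the number 1. It held 1863 of the 5160 cell barcodes in the deposited table, taken by that number alone. The authors' file gives no name to the cluster. Its working name, mitotic germ cells, came with 4 marker transcripts of mitosis chosen with earlier results of these data known. Their levels below describe the cluster and do not test the name. Single-cell RNA sequencing was done on male germ cells at embryonic day 14.5, sorted by flow cytometry for the red fluorescent protein tdTomato and prepared with 10x Genomics Chromium v2 chemistry. In that chemistry reads come from transcript 3′ ends, and molecules are counted by unique molecular identifiers (UMIs). The groups were 3 samples from Rb1 cKO mice, a conditional knockout of the retinoblastoma gene, and 3 control samples with the genotype wildtype. All 6 came from male fetuses of mixed C57/B6 and 129 strain. Neither the Cre driver nor the deleted exon is named in the labels, which also do not say whether the controls carry Cre. Since the labels do not tie the samples to separate animals or litters, a p-value here speaks of spread among these samples alone, and that spread may be technical.

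A dividing cell builds up cyclin B and its kinase in G2, condenses its chromosomes and assembles a spindle in mitosis. It then leaves mitosis when the anaphase-promoting complex, a ubiquitin ligase switched on by Cdc20, marks cyclin B and securin for destruction. The retinoblastoma protein binds E2F transcription factors and holds back the genes of S phase, the stage of DNA replication. Many genes of G2 and mitosis carry a cell cycle homology region (CHR) near their start, a short element bound by the MuvB complexes, which keep such genes silent early in the cycle and activate them later. Around this age male germ cells of the mouse stop dividing and enter a long arrest.

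Cluster 1 was the second largest of the 5 author clusters. Cluster 0 held 2210 barcodes, cluster 2 held 640, cluster 3 held 349 and cluster 4 held 98. In the cKO samples cluster 1 held 174, 319 and 390 barcodes with 2844051, 4154266 and 5426447 summed UMIs. In the control samples it held 300, 162 and 518 barcodes with 4063713, 2809693 and 6433711 summed UMIs. A cell of cluster 1 had a median of 13496 UMIs, against 14175 in cluster 0 and 15517.5 in cluster 2. The median was lower in cluster 1 than in the other clusters of the same sample in 6 of 6 samples. Scrublet called 53 cluster 1 cells doublets, or 2.84%. By sample the share was 8.05%, 3.13% and 1.28% in cKO samples and 2.67%, 6.17% and 1.16% in controls. Across libraries 9 barcode sequences recurred, of which 2 included a cluster 1 cell and 0 lay in cluster 1 in both libraries.

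Germ cell markers summed to between 8462 and 9187 UMIs per 1000000 (CPM) over the cKO samples of cluster 1, against 8638 to 9599 CPM over the control samples. Beside these, markers of other testis cell types were low there. All 10 Sertoli cell markers had a UMI in cluster 1, summing to 16.2, 12.999 and 14.9 CPM in cKO samples and 13.3, 8.19 and 41.0 CPM in controls, with control 3 apart. Macrophage and megakaryocyte markers summed to 2.65 to 5.16 CPM in cKO samples and 4.27 to 9.95 CPM in controls, with Ppbp and Ptprc at 0 and UMIs for the other 8 of 10. Interstitial stromal markers reached at most 2.81 CPM in cKO samples and 4.66 CPM in controls, with Tcf21 at 0 and 8 of 9 detected. Of the 7 Leydig cell markers Cyp17a1, Hsd3b1 and Insl3 were at 0, and the sum of 55.8 to 64.5 CPM in cKO samples and 50.4 to 59.8 CPM in controls was mostly Fdx1, a widely expressed ferredoxin. Endothelial markers, all 7 detected, summed to 71.3 to 81.6 CPM in cKO samples and 77.9 to 93.7 CPM in controls, mostly Pecam1 and Cldn5. Their mean over samples was 80.5 CPM in cluster 1, against 70.5, 60.1, 87.4 and 69.1 CPM in clusters 0, 2, 3 and 4. Erythroid markers summed to 5.63, 27.4 and 20.6 CPM in cKO samples and 37.4, 21.4 and 33.1 CPM in controls. The part of these transcripts in the differences below was not tested.

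The promoters of the 4 marker genes are shown because they carry, in different numbers, the elements through which genes of G2 and mitosis are commonly controlled. Each is 250 bases before to 50 bases after a start of the gene, the first listed where there were several. Sequences are from RefSeq in mouse build GRCm38.p6, written 5′ to 3′ on the gene's strand. Capitals mark every CHR (TTTGAA or TTCGAA) and every CCAAT box (CCAAT) on either strand, so that CCAATTGG is a CCAAT box on each strand with 2 shared bases.
Cdc20 (chr4:118437294-118437593, minus strand): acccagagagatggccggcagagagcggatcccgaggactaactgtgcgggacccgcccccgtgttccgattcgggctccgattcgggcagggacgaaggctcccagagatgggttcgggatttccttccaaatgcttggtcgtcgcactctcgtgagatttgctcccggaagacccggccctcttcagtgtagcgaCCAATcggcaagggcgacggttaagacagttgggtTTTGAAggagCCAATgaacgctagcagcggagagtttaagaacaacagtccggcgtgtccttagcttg
Ube2c (chr2:164769679-164769978, plus strand): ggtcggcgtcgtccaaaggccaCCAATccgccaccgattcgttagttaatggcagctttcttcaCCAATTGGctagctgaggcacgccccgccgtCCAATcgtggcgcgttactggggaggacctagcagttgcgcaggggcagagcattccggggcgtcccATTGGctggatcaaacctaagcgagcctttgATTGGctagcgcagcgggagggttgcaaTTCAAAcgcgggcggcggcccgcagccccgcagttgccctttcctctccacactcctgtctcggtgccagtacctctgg
Hmmr (chr11:40733388-40733687, minus strand): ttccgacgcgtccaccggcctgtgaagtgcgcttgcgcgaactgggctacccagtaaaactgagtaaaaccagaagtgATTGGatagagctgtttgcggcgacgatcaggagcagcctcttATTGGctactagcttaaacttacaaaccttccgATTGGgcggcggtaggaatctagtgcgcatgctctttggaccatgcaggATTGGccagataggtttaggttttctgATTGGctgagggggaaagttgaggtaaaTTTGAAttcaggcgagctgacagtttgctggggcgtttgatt
Ccnb1 (chr13:100786437-100786736, minus strand): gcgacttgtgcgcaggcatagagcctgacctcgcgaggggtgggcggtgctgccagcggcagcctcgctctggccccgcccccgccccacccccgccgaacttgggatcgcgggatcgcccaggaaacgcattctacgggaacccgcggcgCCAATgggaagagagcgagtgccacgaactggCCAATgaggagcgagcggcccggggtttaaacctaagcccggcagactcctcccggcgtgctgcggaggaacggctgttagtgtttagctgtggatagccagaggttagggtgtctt
The single CHR of Cdc20 began 18 bases before the start, between CCAAT boxes at 53 and 8 bases before it. Ube2c had its CHR 29 bases before the start and 6 CCAAT boxes, and Hmmr had a CHR 8 bases after the start used and 5 CCAAT boxes. That Hmmr start lies inside the gene's RefSeq span, which reaches 40733464, so distances from the outer end of the gene differ. Ccnb1 had CCAAT boxes 99 and 67 bases before the start, and neither CHR spelling lies in this window. Of the 50 genes that stood highest in cluster 1 relative to the other clusters, 42 had a promoter in the RefSeq table. A CHR was in 21 of these 42, or 50%, against 19.4% of all 27025 promoters of the same length. Within 50 bases of the start, a CHR began in 14 of 42, or 33.3%, against 5.29% of all promoters. A CCAAT box was in 29 of 42, or 69.0%, against 37.9% of all promoters. The letters GGCGGGA or GGCGCGA, the core of an E2F element, were on either strand of 9 of 42, or 21.4%, against 13.9%. These matches describe letters in a window and do not show binding.

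The 4 marker transcripts stood higher in cluster 1 than in the other clusters of the same sample in 6 of 6 samples. The authors made the clusters from the expression of these cells, so levels in cluster 1 against the rest are a description, and no test was run on them. Values in this comparison are CPM of UMIs summed per sample, and ratios are on a log2 scale after adding 2 CPM to each value. Cdc20, the activator of the anaphase-promoting complex (chromosome 4, 118432901 to 118437343), had 459, 503 and 398 CPM in cluster 1 cells of cKO samples and 458, 445 and 388 CPM in those of controls. The other clusters had 118, 114 and 89.3 CPM in cKO samples and 104, 120 and 99.1 CPM in controls. No sample of one set reached the other, and the mean log2 ratio was 2.02 with a range of 1.87 to 2.13.

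Ccnb1, which encodes cyclin B1 (chromosome 13, 100778739 to 100786486), averaged 557 ± 33.4 CPM in cluster 1 and 218 ± 15.8 CPM in the other clusters (SD, n = 6). Ube2c, the E2 enzyme that starts ubiquitin chains for the anaphase-promoting complex (chromosome 2, 164769929 to 164772902), averaged 812 ± 48.9 CPM in cluster 1 and 344 ± 23.6 CPM in the others. Hmmr, a hyaluronan receptor that also binds spindle microtubules (chromosome 11, 40701388 to 40733464), averaged 124 ± 10.9 CPM in cluster 1 and 47.2 ± 3.62 CPM in the others. Their mean log2 ratios were 1.35 for Ccnb1, 1.24 for Ube2c and 1.35 for Hmmr. These 4, which came with the working name, are among the 6 genes of highest ratio in the cluster. Not all mitotic genes were higher there. Cdk1, the kinase partner of cyclin B, averaged 126 ± 18.2 CPM in cluster 1 and 147 ± 6.50 CPM in the others, 199 CPM in cluster 2, and was higher in cluster 1 in 1 of 6 samples. Cluster 3 came second for all 4 markers, with 208 CPM of Cdc20 and 291 CPM of Ccnb1 as means over samples.

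**Figure D1:**
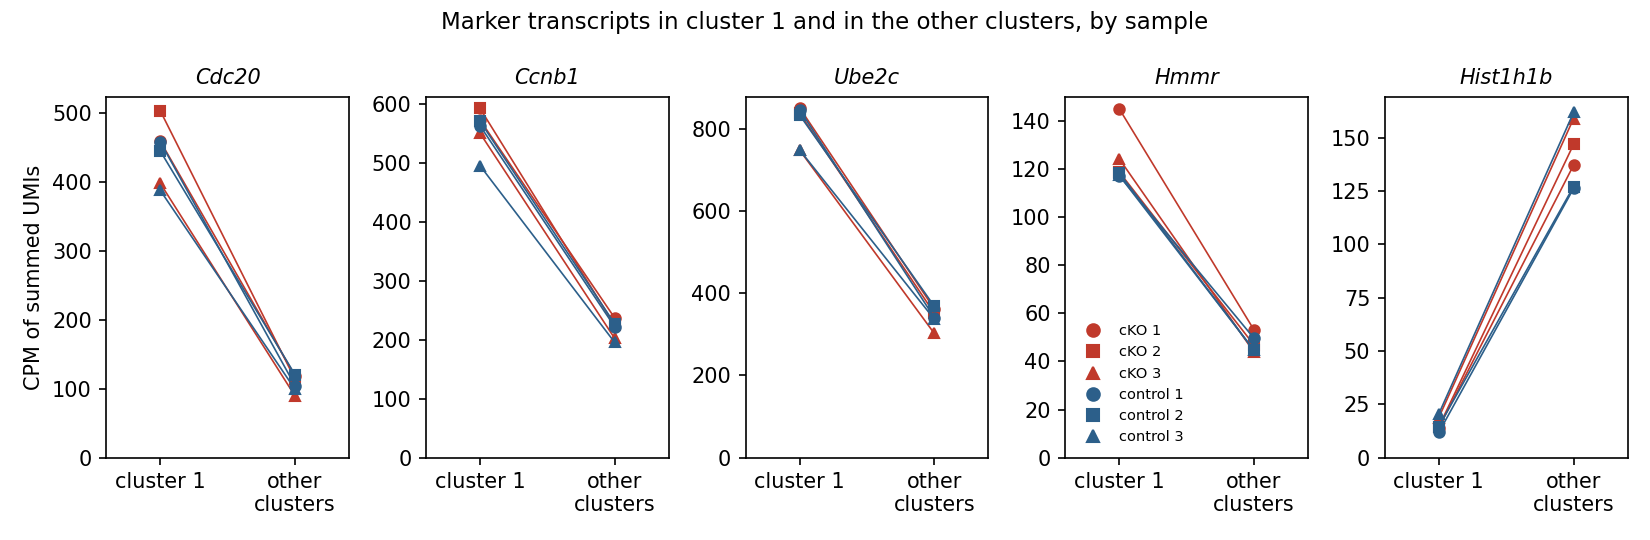
CPM of summed UMIs of 4 mitotic markers and the linker histone gene Hist1h1b in cluster 1 (left) and in the other clusters (right), with 1 line for each of the 6 samples, cKO in red and control in blue. All 6 lines fall for Cdc20, Ccnb1, Ube2c and Hmmr and all 6 climb for Hist1h1b.

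Counted cell by cell, the markers overlapped between clusters. After each cell was thinned to 10000 UMIs, 1690 cells of cluster 1 remained and 173 shallower cells were left out. A cluster 1 cell then held a median of 19 UMIs of the 4 markers together, with a 10th to 90th percentile range of 10 to 28. A cell of the other clusters held a median of 6, with a range of 2 to 13. The median of cluster 1 was reached by 3.42% of the other cells. Cdc20 had a UMI in 96.3% of cluster 1 cells and 50.6% of other cells, and Hmmr in 67.5% of cluster 1 cells and 34.9% of other cells. Ccnb1 was found in 98.5% of cluster 1 cells and 82.5% of other cells, and Ube2c in 100% of cluster 1 cells and 92.4% of other cells. No cluster of another cell type was annotated, so free RNA was not measured in cells that should lack these transcripts. Cluster 3, which is among the other clusters, held markers of other cell types, but unevenly between samples. Macrophage and megakaryocyte markers averaged 111 ± 257 CPM there, interstitial stromal markers 59.8 ± 75.7 CPM and Sertoli cell markers 54.7 ± 43.7 CPM (SD, n = 6). Over the other clusters together, macrophage and megakaryocyte markers summed to 86.7 CPM in control 2 and to between 2.13 and 7.44 CPM in the remaining samples. As means over samples, the same lists had at most 17.8 CPM in cluster 1. Barcodes of cluster 3 went down to 518 UMIs, against 3054 in cluster 1.

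Among genes with at least 20 CPM in cluster 1, the 25 of highest ratio included the 4 markers. Behind Cdc20 came Blnk, an adaptor protein best known from B cell receptor signalling, at 68.6 ± 13.8 CPM in cluster 1 and 25.6 ± 7.31 CPM in the other clusters (SD, n = 6), a mean log2 ratio of 1.37. Among genes of the spindle, the ratio was 1.25 for Nusap1, which bundles microtubules, and 1.18 for Tpx2, which activates the kinase Aurora A. Aspm, a spindle pole protein, had 0.97 and Knstrn, a kinetochore and spindle protein, also had 0.97. Kif23 and Ect2, which drive cytokinesis, had 0.96 and 0.80, the kinetochore motor Cenpe had 1.13, and Cenpa, the histone of centromeres, had 0.80. The rest of the 25 were Tuba1c, Arl6ip1, Cdkn3, Aurka, Plk1, Rab26os, Tob1, Miip, 5031425E22Rik, Cdc25c, Fam117a and Ppp1r10. Each of the 25 was higher in cluster 1 than in the other clusters together in 6 of 6 samples. The last of them, Ppp1r10, had a ratio of 0.77, and the first gene outside, Cks2, had 0.73.

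Not all of these genes set cluster 1 apart from cluster 2, where replication-dependent histone transcripts stood highest. Plk1, the polo-like kinase of mitotic entry, averaged 94.4 CPM in cluster 1, 97.9 CPM in cluster 2 and 28.4 CPM in cluster 0. Aurka, the spindle pole kinase Aurora A, averaged 119 CPM in cluster 1, 107 CPM in cluster 2 and 40.6 CPM in cluster 0. Kif23 stood at 33.4 CPM in cluster 1 and 33.0 CPM in cluster 2. Cdc20 was far apart in the same pair, with 442 CPM in cluster 1 and 139 CPM in cluster 2. Cluster 4 held Tob1 at 23.6 CPM and Cdc25c at 18.2 CPM, against 21.3 and 20.8 CPM in cluster 1. In cluster 3, 5031425E22Rik averaged 22.1 CPM, against 23.6 CPM in cluster 1.

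Among genes with at least 20 CPM in the other clusters, the 10 lowest in cluster 1 were 9 histone genes and 2810417H13Rik, named Pclaf in the current nomenclature, which encodes a partner of the replication clamp PCNA. Hist1h1b, a linker histone made during replication, had 14.1, 14.4 and 18.8 CPM in cluster 1 of cKO samples and 11.8, 14.6 and 20.5 CPM in cluster 1 of controls. The other clusters had 137, 147 and 159 CPM in cKO samples and 126, 127 and 162 CPM in controls. Its mean log2 ratio was -3.05, and the sets did not overlap. The other histone genes were Hist1h2ap, Hist1h2ae, Hist1h1a, Hist1h1e, Hist1h2ak, Hist2h2ac, Hist1h4d and Hist1h1d, with ratios of -2.61 to -1.80. 2810417H13Rik averaged 17.9 ± 4.57 CPM in cluster 1 and 58.6 ± 12.4 CPM in the other clusters, a ratio of -1.61. Histone genes of the H2A and of the H4 family are near-identical within their family, so the split of reads among them is uncertain, and histone mRNAs mostly lack the poly(A) tail that the chemistry captures.

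Lists of genes by role showed where cluster 1 was high and where it was low. Among the 4924 genes whose mean over both sets reached 20 CPM, 21.1% were higher in cluster 1 in 6 of 6 samples and 19.2% were lower in 6 of 6. Spindle and mitotic motor genes had 22 of 28 higher and 4 lower, with a median log2 ratio of 0.49 against 0.01 over all genes. Mitotic cyclins and kinases had 10 of 15 higher and 1 lower, with a median of 0.31. The 1 lower was Aurkb, the kinase of the chromosomal passenger complex, at 40.3 ± 5.75 CPM in cluster 1 and 49.5 ± 5.03 CPM in the others.

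Genes of the anaphase-promoting complex and its regulators had 8 of 22 higher and 3 lower, with a median of 0.08. Its E2 enzyme Ube2s, which extends ubiquitin chains, averaged 2049 ± 96.3 CPM in cluster 1 and 1420 ± 58.6 CPM in the others. Pttg1, which encodes securin, averaged 270 ± 3.30 CPM in cluster 1 and 214 ± 8.16 CPM in the others. Fbxo5, an inhibitor of the complex before mitosis, had 55.7 ± 12.2 CPM in cluster 1 and 137 ± 10.6 CPM in the others, a ratio of -1.29.

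Kinetochore and centromere genes were split, with 11 of 30 higher and 8 lower and a median ratio of 0.09. Cenpf, a large protein of the outer kinetochore, averaged 715 ± 68.2 CPM in cluster 1 and 527 ± 46.4 CPM in the others, whereas Ndc80, which holds the microtubule, averaged 26.7 ± 4.35 CPM in cluster 1 and 40.5 ± 4.08 CPM in the others. Condensin and chromosome structure genes had 3 of 21 higher and 7 lower, with a median of -0.02. Top2a, the topoisomerase that untangles sister chromatids, averaged 299 ± 46.8 CPM in cluster 1 and 439 ± 58.0 CPM in the others, and 653 CPM in cluster 2. Smc4, a condensin core subunit, had a ratio of -0.77 and was likewise highest in cluster 2, at 350 CPM.

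Genes of DNA replication were low in cluster 1. In the S phase list 0 of 42 were higher and 37 were lower in 6 of 6 samples, with a median ratio of -0.52. E2F target genes had 1 of 38 higher and 31 lower, with a median of -0.56, and replication-dependent histones had 7 of 7 lower, with a median of -2.21. The S phase and E2F lists share 24 genes, which is 53.3% of the first and 54.5% of the second. Rrm2, a subunit of the enzyme that makes deoxynucleotides, averaged 74.2 ± 12.5 CPM in cluster 1 and 167 ± 16.5 CPM in the others. Ccne1, which encodes the G1/S cyclin E1, averaged 34.7 ± 10.8 CPM in cluster 1 and 70.6 ± 6.85 CPM in the others.

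Pluripotency and primordial germ cell genes had 10 of 16 higher and 2 lower, with a median of 0.20. Nanog averaged 47.9 ± 3.15 CPM in cluster 1 and 34.95 ± 0.752 CPM in the others, and Tcl1, a kinase coactivator of early embryonic cells, averaged 201 ± 11.8 CPM in cluster 1 and 130 ± 5.70 CPM in the others. Pou5f1, which encodes Oct4, was among those lower, at 612 ± 20.4 CPM in cluster 1 and 653 ± 34.0 CPM in the others. Oxidative phosphorylation genes had 0 of 28 higher and 20 lower, with a small median of -0.08. In the smaller remaining lists, meiosis genes had 0 of 11 higher and 6 lower, G1 cyclins and kinases 2 of 8 higher and 3 lower, and G2/M regulators of transcription 0 of 6 higher and 2 lower. Male germ cell and piRNA genes had 2 of 9 higher and 0 lower, and pocket proteins and CDK inhibitors had 0 of 4 higher and 1 lower.

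**Figure D2:**
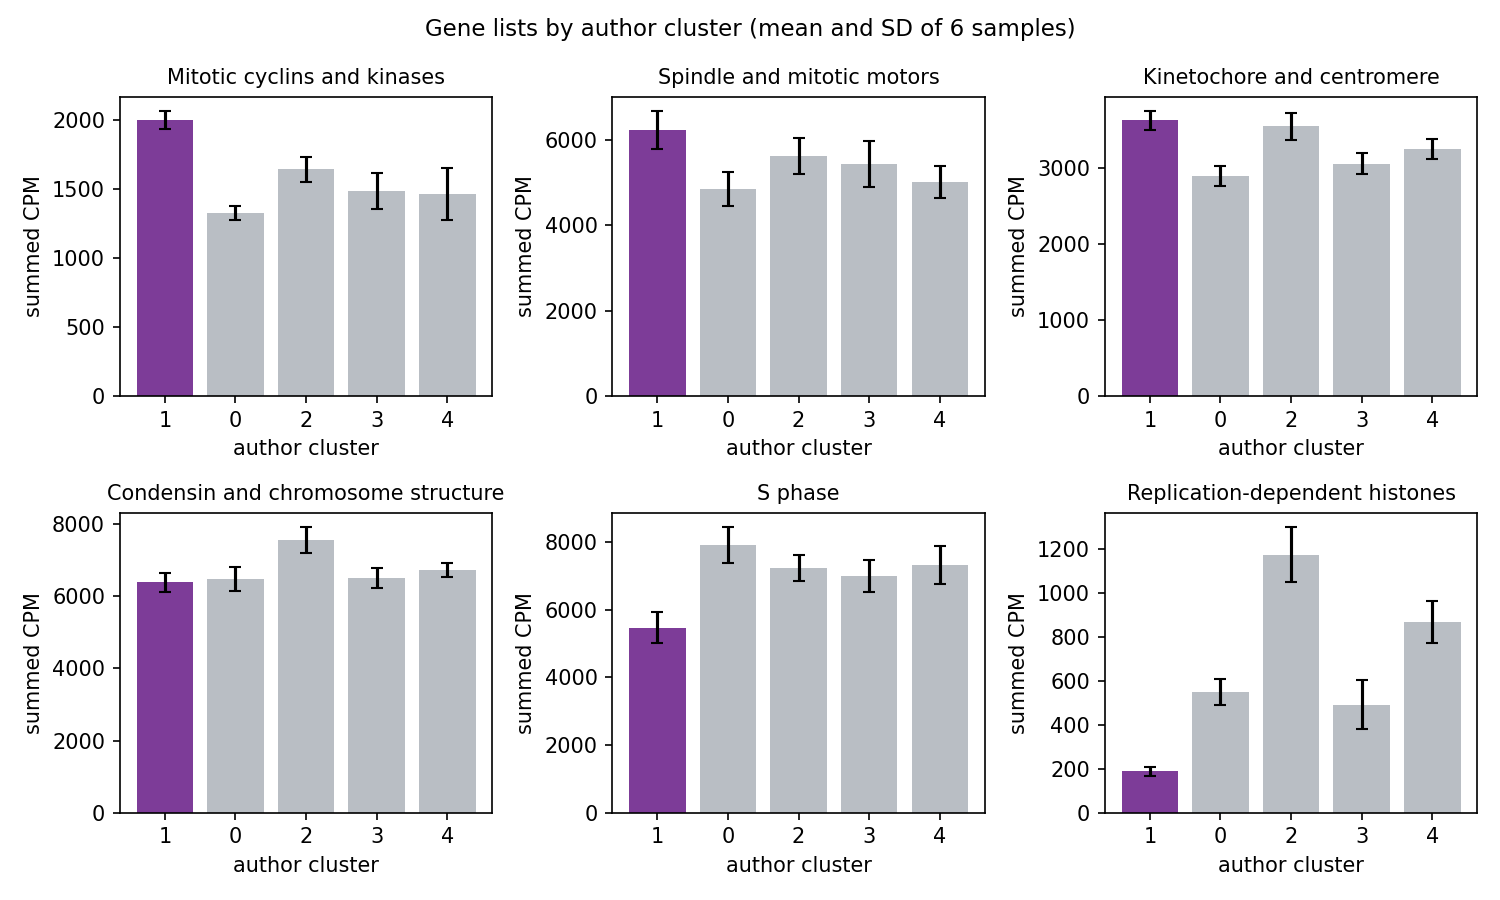
Summed CPM of 6 gene lists in each author cluster, as the mean of 6 samples with the SD as the error bar, with cluster 1 first in purple. Mitotic cyclins and kinases were highest in cluster 1, S phase genes and histones lowest there, and condensin and histone genes highest in cluster 2.

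Cluster 1 took a smaller share of each cKO sample than of each control sample. It held 36.3%, 33.6% and 33.5% of barcodes in cKO samples and 38.3%, 37.7% and 38.3% in controls. The exact 95% binomial intervals, which cover counting error only, ran from 31.9% to 40.7% in cKO 1 and from 35.7% to 40.9% in control 3. The groups did not overlap, and the means were 34.5 ± 1.54% in cKO samples and 38.1 ± 0.339% in controls (SD, n = 3 each). The difference was -3.60 percentage points, with an exact two-sided permutation p of 0.1, the smallest that 3 samples against 3 allow. Cluster 2 held 13.3 ± 1.04% of cKO samples and 11.1 ± 1.86% of controls, with an exact permutation p of 0.2. Cluster 3 held 8.70 ± 0.876% of cKO samples and 6.18 ± 3.87% of controls, with an exact permutation p of 0.4. It held 1.85% of control 3, against 7.40% to 9.70% of the remaining samples. Clusters 0 and 4 averaged 41.6% and 1.90% in cKO samples and 42.7% and 1.99% in controls. The part of cluster 3 in the share difference of cluster 1 was not tested. The clusters come from the expression of these cells, and S phase transcripts stood higher in cKO cells of cluster 1, so the share and those transcripts are not independent measures. Median UMIs per cluster 1 cell were 16452, 12914 and 13736.5 in cKO samples and 13322.5, 17255.5 and 12219.5 in controls, which overlap (exact permutation p = 1).

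**Figure D3:**
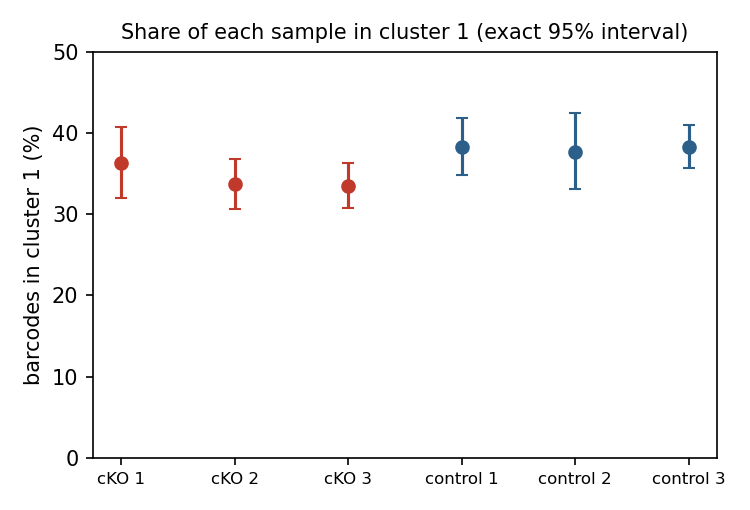
Share of each sample's barcodes in cluster 1, in percent, with exact 95% binomial intervals, for 3 cKO samples (red) and 3 control samples (blue). The cKO points lie between 33.5% and 36.3% and the control points between 37.7% and 38.3%, while the intervals of single samples overlap.

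Rb1 itself was lower in cluster 1 of every cKO sample, and no gene passed the threshold between the groups. Values from here on are CPM of summed UMIs scaled with TMM factors, and fold changes are log2 of cKO over control. Rb1 (chromosome 14, 73192858 to 73325951) had 2.73, 3.59 and 2.84 CPM in cKO samples and 9.44, 7.38 and 5.64 CPM in controls. These rest on 8 to 38 UMIs a sample. The groups did not overlap, giving a log2 fold change of -1.26 ± 0.30 (SE). Its adjusted p was 0.9997 by the quasi-likelihood test of edgeR, and 0.122 to 0.99998 over the alternatives. The log2 fold change was -1.28 in the other clusters, and the difference between the 2 effects was 0.03 on the log2 scale. Reads at the 3′ end may lie outside the deleted part, so the value does not check the deletion.

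By edgeR, 0 of 9889 genes were called at an adjusted p under 0.05, which is 0%, and by DESeq2 also 0. At an unadjusted p under 0.05, 151 genes, or 1.53%, stood higher in cKO cells and 182, or 1.84%, stood lower. The groups did not overlap for 460 genes with cKO above, or 4.65%, and for 454 with cKO below, or 4.59%. Without a low-count filter 8 genes were called, 1 higher and 7 lower, and without control 3 the count was 2. The 8 included Nodal, Rnaset2b, Riok3 and Uhrf1, which are among the 10 genes of smallest p described next.

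Of the 10 genes with the smallest p, 4 stood higher in cKO cells and 6, Rb1 included, stood lower. Tipin, which stabilises stalled replication forks, had 176, 196 and 174 CPM in cKO samples and 142, 138 and 137 CPM in controls, a log2 fold change of 0.39 ± 0.09 (SE). Gins2, a subunit of the replicative helicase, had 29.4, 27.7 and 27.4 CPM in cKO samples and 15.9, 20.7 and 19.2 CPM in controls, a fold change of 0.60. Uhrf1, which carries DNA methylation through replication, had 31.4, 30.4 and 27.3 CPM in cKO samples and 19.1, 22.8 and 13.7 CPM in controls, a fold change of 0.71. Every cKO sample lay above every control for these genes. Smc1b, a cohesin subunit of meiosis, had 218, 220 and 223 CPM in cKO samples and 186, 162 and 152 CPM in controls, a fold change of 0.41.

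Besides Rb1, 5 of the 10 stood lower in cKO cells. Nodal, a signalling ligand of the TGF-beta family that male germ cells make at this age, had 13.7, 9.33 and 15.3 CPM in cKO samples and 25.1, 26.0 and 19.97 CPM in controls, a log2 fold change of -0.87. Riok3, an atypical kinase, had 34.8, 29.4 and 28.6 CPM in cKO samples and 54.4, 40.0 and 47.2 CPM in controls, a fold change of -0.62. The groups did not overlap for these genes. Cks1brt, a gene of the family of small CDK-binding proteins, had a fold change of -1.24, with at most 4.35 CPM in cKO samples and 8.43 CPM in controls. Rnaset2b had a fold change of -1.02 and Nme2 of -0.75, and both have a close copy that can share reads.

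The 4 markers of cluster 1 did not separate the groups. Cdc20 had 446, 500 and 409 CPM in cKO samples and 463, 439 and 402 CPM in controls, a log2 fold change of 0.06 ± 0.09 (SE). Ccnb1 had 0.06 ± 0.07, Ube2c -0.02 ± 0.07 and Hmmr 0.11 ± 0.09. The groups overlapped for all 4.

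Genes of S phase mostly stood higher in cKO cells of cluster 1, with quartiles of the log2 fold change at 0.12 and 0.35. Of 45 tested, 44 had a positive log2 fold change, against 49.7% of all genes, with a median of 0.19 against 0.00 over all genes tested. The exception, Tyms, had -0.03. In 21 of the 45 every cKO sample stood above every control, against 4.65% of all genes, and in 0 below, against 4.59%. At an unadjusted p under 0.05, 18 were higher, against 1.53% of all genes, and 0 lower, against 1.84%, and 0 passed at an adjusted p under 0.05 by edgeR. The list was already known to stand higher over all germ cells of these samples, so its direction here is not independent evidence.

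Members differed in size within the list. Cdc6, which loads the replicative helicase, had 41.0, 41.6 and 43.0 CPM in cKO samples and 24.1, 26.7 and 34.5 CPM in controls, a log2 fold change of 0.54. Slbp, which binds the stem-loop of histone mRNAs, had 422, 405 and 382 CPM in cKO samples and 341, 301 and 359 CPM in controls, a fold change of 0.27. The largest in the list was E2f8, a repressor of the E2F family, with 16.4, 15.1 and 12.7 CPM in cKO samples and 5.72, 6.32 and 10.3 CPM in controls, a fold change of 0.92. For these 3 genes the groups did not overlap. The clamp gene Pcna overlapped, with 137, 101 and 124 CPM in cKO samples and 121, 120 and 103 CPM in controls. Hells and Nasp, a chromatin remodeller and a histone chaperone, had fold changes of 0.19 and 0.15, with overlapping groups.

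E2F targets gave 40 of 44 positive, with a median of 0.18, and 16 with cKO above, against 4.65% of all genes, and 0 below, against 4.59%. The 21 tested S phase genes outside that list had 21 positive and a median of 0.19, and the 20 E2F targets outside the S phase list had 17 positive and a median of 0.18. E2f1, the founding activator of the family, had a negative fold change of -0.54. Outside cluster 1 the medians of the same lists were 0.13 for S phase and 0.11 for E2F targets. There 42 of 45 S phase genes were positive, against 49.2% of all genes, and 14 had every cKO sample above every control, against 4.52%. Gene by gene on the log2 scale, the effect in cluster 1 exceeded that in the other clusters for 36 of 45 S phase genes. Over all genes it did so for 5207 of 9889, and the median difference was 0.07 for the list against 0.01. None of the 45 passed edgeR's test of that difference, and 8 had an unadjusted p under 0.05, in either direction, against 4.93% of all genes. In CPM before TMM scaling, the list's sum was lower in cluster 1, with means of 5858 in cKO samples and 5078 in controls. The other clusters had 8009 in cKO samples and 7283 in controls.

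The same direction was seen in single cells. In cluster 1 cells thinned to 10000 UMIs, the S phase list had a median of 60, 57.5 and 57 UMIs a cell in cKO samples and 48, 50.5 and 50 in controls. The 10th percentiles were 45.8, 44.7 and 41 in cKO samples and 37, 39 and 38 in controls, and the 90th were 74.2, 74 and 74 in cKO samples and 63.5, 67.5 and 65 in controls. Low, middle and high cells of the cluster thus all stood higher in cKO samples, with no overlap between groups. Medians in the other clusters were 82, 79 and 81 in cKO samples and 75, 75 and 69 in controls. The cKO medians in cluster 1 lay below the control medians of the other clusters, while the cells themselves overlapped widely.

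Within cluster 1 the S phase list was also read against the 4 markers. In the cells with the fewest marker UMIs, which were 42, 72 and 92 cells of cKO samples and 71, 39 and 105 of controls, the S phase list averaged 65.1, 64.8 and 65.6 UMIs a cell in cKO samples and 52.8, 55.0 and 54.6 in controls. In equally many cells with the most marker UMIs it averaged 55.3, 53.3 and 50.1 in cKO samples and 48.7, 50.7 and 47.5 in controls, where the groups overlap. Whether the gap differs between these cells was not tested.

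**Figure D4:**
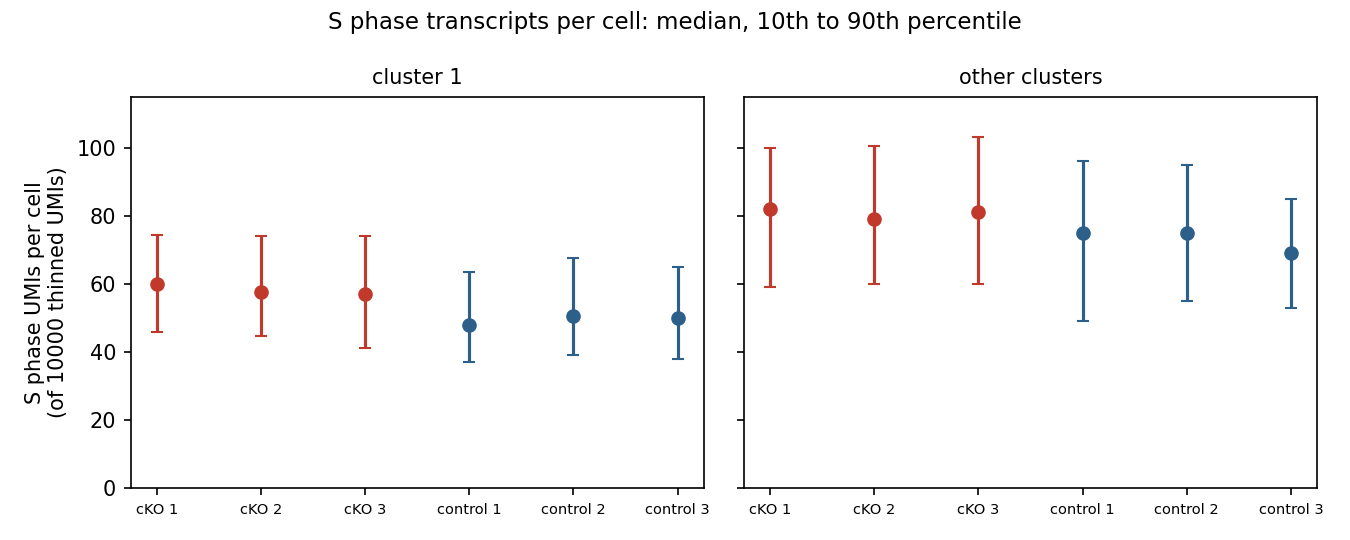
UMIs of the S phase list per cell after thinning to 10000 UMIs, in cluster 1 (left) and the other clusters (right), for 3 cKO samples (red) and 3 control samples (blue). Points are medians over cells and bars run from the 10th to the 90th percentile. The cKO medians in cluster 1 lie at 57 to 60 and the control medians at 48 to 50.5.

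The lists of mitosis had medians nearer to 0. Kinetochore and centromere genes had 26 of 34 positive with a median log2 fold change of 0.10, condensin and chromosome structure genes 17 of 21 with 0.09, and spindle and mitotic motor genes 24 of 35 with 0.05. Mitotic cyclins and kinases had 12 of 21 positive with a median of 0.04, or -0.02 without control 1 and -0.001 without cKO 1, and the anaphase-promoting complex list 10 of 23 with -0.02. Of these lists together, 0 genes passed at an adjusted p under 0.05 by edgeR. Cenpf had 766, 773 and 780 CPM in cKO samples and 677, 647 and 658 CPM in controls, a fold change of 0.23 ± 0.07 (SE), and the groups did not overlap.

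Single members without overlap were few. Kinetochore genes had 4 of 34 with cKO above, spindle genes 3 of 35 above and 1 below, condensin genes 2 of 21 above, mitotic cyclins and kinases 1 of 21 above and the anaphase-promoting complex list 1 of 23 below, against 4.65% of all genes above and 4.59% below. Wee1, the kinase that holds Cdk1 inactive before mitosis, had 21.5, 21.5 and 19.1 CPM in cKO samples and 10.9, 15.5 and 17.2 CPM in controls, a fold change of 0.49. Ncapg2, a condensin II subunit, had 20.8, 20.1 and 16.1 CPM in cKO samples and 14.7, 12.3 and 12.4 CPM in controls, a fold change of 0.52. Anln, a scaffold of the cytokinetic ring, stood lower, with 36.2, 36.3 and 36.3 CPM in cKO samples and 39.0, 43.9 and 44.8 CPM in controls, a fold change of -0.23. For none of the 3 genes did the groups overlap. Cenpe had 0.22 and Tacc3, a spindle protein, 0.18, both also without overlap, while Nek2, Anapc16 and Anapc7 had -0.29, -0.28 and -0.21 with overlap. Among the most abundant members besides Cenpf, the fold change was 0.04 for Ccnb2, -0.06 for Ube2s, 0.10 for Tubb5, 0.30 for Stmn1 and -0.16 for Cenpa. Hmgb2 and Hmgb1 had 0.07 and 0.06, and Smc2 had 0.17. The groups overlapped for Stmn1, with 1009, 1110 and 924.5 CPM in cKO samples and 989, 926 and 567 CPM in controls, control 3 being lowest.

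Regulators of the G1 and G2 controls varied among themselves. Among G2/M regulators of transcription 10 of 13 were positive with a median of 0.03. Lin52, a subunit of MuvB, had 4.44, 3.83 and 3.97 CPM in cKO samples and 1.99, 1.76 and 2.25 CPM in controls, a fold change of 0.98 without overlap. Ybx1, a nucleic acid-binding protein, ranged from 484 to 1258 CPM in cKO samples and from 459 to 1317 CPM in controls, with cKO 3 and control 1 low. Pocket proteins and CDK inhibitors had 5 of 8 positive with a median of 0.14. Cdkn1b, which encodes the CDK inhibitor p27, had 7.85, 5.98 and 7.57 CPM in cKO samples and 5.22, 5.27 and 4.67 CPM in controls, a fold change of 0.50. Cdkn1a, which encodes p21, had 0.22, and Cdkn2a had 0.05, both with overlap. G1 cyclins and kinases had 8 of 12 positive with a median of 0.05, among them Cdc25a with 0.35 and Cdk4 with 0.04, while Ccnd3 had -0.21.

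Replication-dependent histones were of mixed sign. Of 18 tested, 11 were positive, with a median log2 fold change of 0.06, and of -0.13 without control 1. Hist1h2bc had 13.7, 17.5 and 12.5 CPM in cKO samples and 18.6, 26.3 and 28.2 CPM in controls, a fold change of -0.75 without overlap. Hist1h2ag had -0.66 and Hist1h4i -0.22, both with overlap.

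Lists of the germ line differed in the sign of their medians. Meiosis genes had 14 of 19 positive with a median of 0.16, and of 0.25 without cKO 1 and 0.27 without control 1, led by Smc1b, with Syce1 of the synaptonemal complex at 0.33, Syce2 at 0.00 and the cohesin gene Smc3 at 0.03. Pluripotency and primordial germ cell genes had 2 of 22 positive with a median of -0.11, and 3 with every cKO sample below every control, against 4.59% of all genes. Leaving out control 3 gave a median of -0.06 and 6 positive genes, and leaving out control 1 gave -0.19 and 2. The 3 were Nr5a2 at -0.47, Tfap2c at -0.30, both transcription factors, and Pou5f1 at -0.05. Before TMM scaling Pou5f1 overlapped, with 619, 615 and 583 CPM in cKO samples and 641, 619 and 594 CPM in controls. Tfap2c, which specifies primordial germ cells, had 24.9, 24.4 and 25.4 CPM in cKO samples and 26.1, 32.3 and 33.3 CPM in controls. The abundant Dppa5a and Dppa3 had -0.17 and -0.02, with overlap. Male germ cell and piRNA genes had 12 of 18 positive with a median of 0.07, or -0.03 without control 3, with Dazl at 0.16, Fkbp6 at -0.10, Nanos3 at -0.39 and Mov10l1 at 0.30, all overlapping.

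Oxidative phosphorylation genes had 0 of 28 positive, with a median of -0.08 and 3 below without overlap, against 4.59% of all genes. Without cKO 1 the median was -0.03 and without control 3 it was -0.04, each with 5 of 28 positive. The other clusters also gave 0 of 28, with a median of -0.07. Atp5g3 and Uqcr10 had the smallest p, with -0.25 and -0.18, and the abundant Cox7c and Atp5b had -0.08 and -0.01. All 4 overlapped between groups, and 0 of the list passed at an adjusted p under 0.05 by edgeR.

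**Figure D5:**
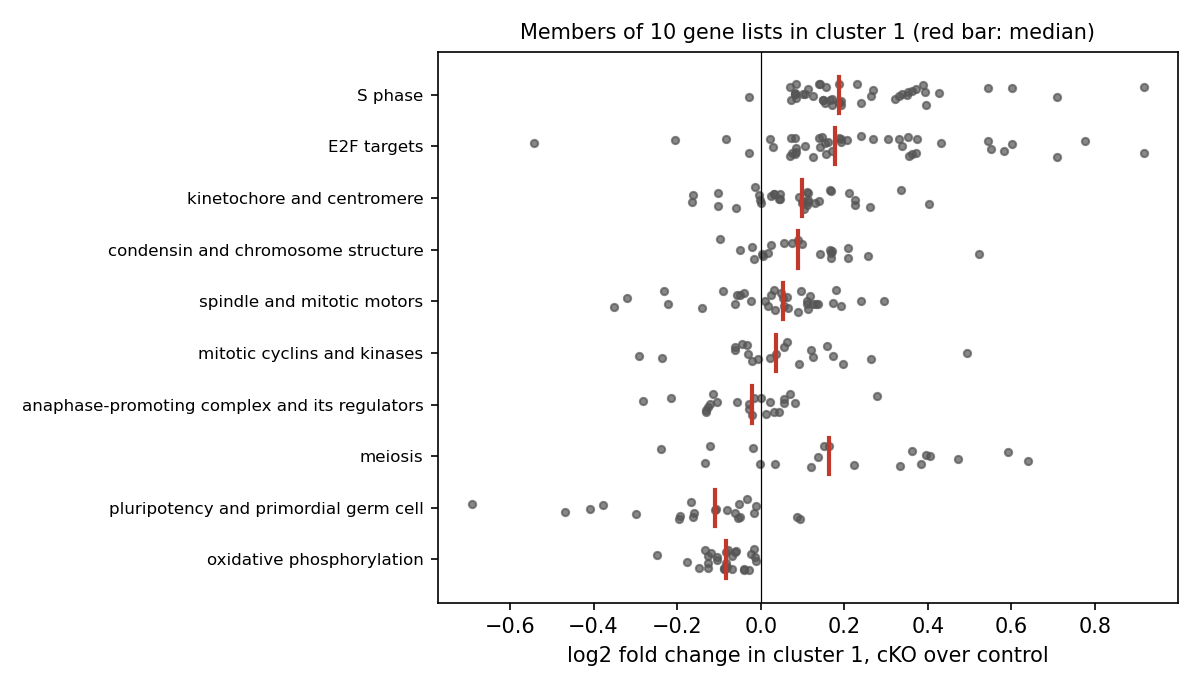
Log2 fold change of cKO over control in cluster 1 for the members of 10 gene lists, with 1 point a gene and the list's median as a red bar. The S phase median is at 0.19 with 44 of 45 points right of 0, the pluripotency median at -0.11, and 0 of 28 oxidative phosphorylation genes are right of 0.

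The effect of the genotype differed between cluster 1 and the other clusters for 3 of 10659 genes by edgeR, or 0.0281%, all with the more positive effect in cluster 1. That fit takes the cluster 1 and other sums of a sample as separate libraries. When the 2 sums were paired within each sample, by limma on their differences, 0 genes were called. At an unadjusted p under 0.05 limma gave 566 of the same 10659 genes, where edgeR gave 525, or 4.93%. Retn, which encodes the secreted peptide resistin (chromosome 8, 3655770 to 3659818), had 3.07, 2.39 and 56.6 CPM in cKO cells of cluster 1 and 4.22, 2.46 and 12.2 CPM in control cells. In the other clusters it had 5.08, 2.13 and 20.7 CPM in cKO samples and 5.10, 3.29 and 25.2 CPM in controls. In cluster 1 cKO 3 was highest and control 3 next. In cKO 3, 12 of 390 barcodes held its 299 UMIs, and 4 of them held 291. Without cKO 3 the difference was 0.56 on the log2 scale, with an adjusted p of 0.996 by edgeR. It was 2.14 without control 2 and 1.5 without control 3, and edgeR's adjusted p of 0.422 and 0.838 also missed the threshold.

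Zfp607, a zinc finger gene, had 4.10, 1.20 and 19.3 CPM in cKO cells of cluster 1 and 1.24, 2.81 and 8.70 CPM in control cells. In cluster 1 cKO 3 was highest, with 102 UMIs in 28 barcodes, and control 3 came next, with 54 UMIs in 24 barcodes. The other clusters had 5.67, 0.474 and 5.28 CPM in cKO samples and 3.06, 2.88 and 14.9 CPM in controls, where control 3 was highest. Without cKO 3 the difference was 0.65, with an adjusted p of 0.996 by edgeR. Without controls 1, 2 or 3 in turn the adjusted p by edgeR was 0.245, 0.0521 and 0.838. Crb3, a protein of epithelial cell polarity (chromosome 17, 57062201 to 57065918), had 20.5, 17.0 and 19.5 CPM in cKO cells of cluster 1 and 13.7, 14.8 and 15.6 CPM in control cells. In the other clusters it had 14.7, 14.7 and 16.9 CPM in cKO samples and 18.5, 18.3 and 25.5 CPM in controls. The groups did not overlap in either set, with cKO above in cluster 1 and below in the others. The difference was 0.82 ± 0.18 (SE). Its adjusted p of 0.0454 by edgeR moved past the threshold, to between 0.0521 and 0.760, when any 1 of the 6 samples was left out. The next genes by p, Wdr34 and Acp6, had differences of 0.39 and 0.65 and an adjusted p of 0.740 by edgeR.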

How the data were processed

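The authors deposited raw UMI counts of 27998 gene symbols in 5160 barcodes, all whole numbers, with 0 rows that name no gene. The sample and cluster number of a barcode come from the authors' metadata file. Per the submitters' processing notes, Cell Ranger, Seurat 3.0 and the build mm10 were used, with no parameters given. Barcodes had 397 to 4946 genes and no cell was removed here. Scrublet was run per sample (scanpy 1.11.5, 30 components). The members and gene lists were chosen with earlier results of these data known.

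Counts were summed per sample over cluster 1 and over the other clusters, and the sample was the replicate. Groups were compared with edgeR 4.0.16 (quasi-likelihood, filterByExpr, TMM, R 4.3.3), two-sided, with Benjamini-Hochberg adjusted p over all genes tested and a threshold of 0.05. Alternatives used DESeq2 1.42.0, limma 3.58.1, other filters and cells, and each sample left out. The scripts were tested on simulated data. Depth in cluster 1 was 2809693 to 6433711 UMIs a sample. Shares were compared by exact permutation over 20 labelings. Named genes were Rb1, the 10 smallest p, the 4 markers, for each pathway list the 2 highest means and 2 smallest p, the 5 smallest p of the difference between clusters, and the 25 highest and 10 lowest ratios. Lists of other cell types are given as sums in place of single genes. Pcna, Cdc6, Tyms, E2f1 and Pou5f1 between genotypes, and members other than these named for their levels by cluster, were chosen after their values were seen. Gene positions are from RefSeq, build GRCm38.p6. Promoters of the S phase list are not reported, since under 80% of its genes had one in the table.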

Additional observations from a re-analysis of the deposited data

Results flagged for a closer look

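For 3 genes the cKO effect differed between cluster 1 and the other clusters by edgeR's test of that difference. Retn had a difference of 2.08 on the log2 scale (cluster 1 minus other clusters), with an adjusted p of 0.0363. Zfp607 had 2.07, with an adjusted p of 0.0454. Crb3 had 0.82, with an adjusted p of 0.0454. With the sums paired within samples, by limma, the differences were 0.86 for Retn, 1.401 for Zfp607 and 0.78 for Crb3, with adjusted p of 0.990, 0.914 and 0.914.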

How the results depend on the processing

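Against 0 genes called between cKO and control samples in cluster 1, the count was 8 without a low-count filter and 0 to 2 with 1 sample left out. Against 3 genes whose effect differed between clusters, it was 5 without a filter, 0 with limma on within-sample differences (the fit with the sample as replicate block) and 0 to 4 with 1 sample left out. It was 0 without control 2, and 1 without control 3, which was none of the 3 genes. The difference in median UMIs per cluster 1 cell, 101.667, ran from -940.583 to 1596.5 with 1 sample left out, and that in share from -4.49 to -3.12 percentage points. The share difference was -3.90 without doublets and -2.95 among barcodes with at least 10000 UMIs. Of 806 values for 62 named genes under 13 alternatives, 775 kept direction and side of the threshold, 4 passed it and 27, from 13 genes, changed sign. With 1 sample left out, log2 fold changes ran from -0.025 to 0.123 for Cdc20, -0.052 to 0.0207 for Ube2c, -0.0205 to 0.126 for Ccnb2, -0.252 to 0.411 for Ybx1, -0.105 to 0.162 for Cdkn2a, -0.0148 to 0.0791 for Cdk4, -0.485 to 0.0173 for Hist1h4i, -0.0321 to 0.0695 for Smc3, -0.0904 to 0.113 for Syce2, -0.0984 to 0.0761 for Dppa3, -0.191 to 0.0641 for Fkbp6, -0.225 to 0.0552 for Cox7c and -0.0436 to 0.0105 for Atp5b. With cells weighted equally, Ube2c had 0.0179, Syce2 0.0295 and Atp5b 0.00803. Syce2 had 0.0019 without a filter and 0.0085 with the replicate block. The cause of these changes was not tested. The S phase median ran from 0.16 to 0.25 and the E2F target median from 0.14 to 0.25 over all alternatives. Other list medians ran from -0.13 to 0.17 for histones and from -0.03 to 0.19 for male germ cell and piRNA genes. Mitotic cyclins and kinases had -0.02 to 0.07 and meiosis 0.11 to 0.27. The range was 0.01 to 0.18 for pocket proteins and CDK inhibitors, -0.19 to -0.06 for pluripotency and -0.12 to -0.03 for oxidative phosphorylation. Kinetochore genes had 0.06 to 0.12, condensin genes 0.04 to 0.09 and the anaphase-promoting complex list -0.05 to -0.002. Samples with the same replicate number correlated at -0.229, 0.297 and 0.138 in their deviations from group means, and those with unlike numbers at -0.319 to 0.210. With 3 samples a group, these values cannot tell whether the numbers pair the samples. The replicate block called 0 genes. With the block the share difference of -3.60 points had an exact p of 0.25 by sign flips over 3 pairs. Genes of a few CPM, such as Rb1 with 8 to 38 UMIs, are limited by depth.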
